A study of Homo sapiens with 9 samples.

Results

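Fatty acid synthesis and desaturation was followed here through 10 genes, chosen by symbol in the table of raw counts, out of 60683 genes listed. Their RNA was counted in 9 cultures of the human liver cancer line Hep3B, which the labels call biological replicates and which were kept for 24 hours under 1 of 3 conditions. One set of 3 cultures had DMSO as vehicle in 20% O2, another had the same vehicle in 1% O2, and the last had the HIF inhibitor 32-134D in 1% O2. The dose of 32-134D is stated in the study's paper but not in the labels and is not repeated here. The compound was not given at 20% O2, and all 9 libraries came from 1 cell line, so the groups model hypoxia and the compound in that line alone. P-values measure the spread between these cultures.

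Cells build fatty acids in the cytosol from citrate that leaves the mitochondria. ACLY splits the citrate to acetyl-CoA, the acetyl-CoA carboxylases ACACA and ACACB make malonyl-CoA, and the fatty acid synthase FASN joins these units to palmitate. ELOVL6 lengthens palmitate to stearate, SCD places the first double bond in saturated chains, and FADS1 and FADS2 desaturate polyunsaturated chains. In the liver, the pathway is driven by SREBP-1, encoded by SREBF1, and by the glucose-responsive factor ChREBP, encoded by MLXIPL. SCD, FADS1 and FADS2 consume molecular oxygen as part of their reaction.

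Total counts ran from 6013980 to 40549699 per library. Of the listed genes, 22672 had counts summing to at least 10 and were tested, and all 10 members were among them, none with fewer than 132 counts in a library. All 9 hepatocyte markers were tested, with summed levels of 18310 to 19770 CPM, counts scaled to library size with TMM factors, in vehicle at 20% O2, 13420 to 16750 in vehicle at 1% O2 and 11740 to 18090 with 32-134D. In that order of groups, APOB had means of 4487, 405.5 and 3520 CPM. ALB, the largest part of the sum, had means of 9284, 9536 and 8116 CPM. Of 9 markers of other cell types, VWF, DES and KRT5 were at 0 in every library and 4 had enough counts to be tested. The summed level of those 9 markers was 33.8 to 36.8 CPM in vehicle at 20% O2, 14.1 to 15.1 in vehicle at 1% O2 and 29.3 to 31.7 with 32-134D, so it moved with the members described next. Most of that sum came from PDGFRB, with means of 27.2, 10.1 and 22.0 CPM in the same order of groups. The part of those markers in the members' results was not tested. With bulk RNA, fewer cells of a type and less RNA per cell cannot be told apart. One treated library stood apart: replicate 3 of 32-134D differed from replicates 1 and 2 with chi-square values of 36.4 and 32.5 per degree of freedom over the counts, against 1.998 between those 2 and at most 12.02 within the vehicle groups. Values printed below for 32-134D are therefore also given without it where their call or sign changed.

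A set of upstream sequences is shown first because 6 of the members fell together in hypoxia and SCD did not. RefSeq gave windows of 250 bases upstream of annotated starts on GRCh38.p14 for 9 of the 10 genes, 14 windows in all, and FASN had no entry. Printed 5′ to 3′ on the strand of the gene are the longest stretches of a window that no exon of GENCODE version 29 covers, for SREBF1, a factor that fell, for ACACA, an enzyme that fell, and for ACLY and SCD, enzymes that were not called. Capitals mark ACGTG and GCGTG, the core that hypoxia-inducible factors bind, and CCAAT, the box bound by NF-Y, which reads ATTGG when it lies on the other strand.
SREBF1, chr17:17837003-17837236, minus strand: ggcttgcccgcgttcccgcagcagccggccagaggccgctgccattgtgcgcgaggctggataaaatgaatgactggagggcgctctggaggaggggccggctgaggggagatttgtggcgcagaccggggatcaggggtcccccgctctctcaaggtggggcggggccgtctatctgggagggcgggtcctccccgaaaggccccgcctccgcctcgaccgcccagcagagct
ACACA, chr17:37299768-37300017, minus strand, from the most downstream of its 3 windows: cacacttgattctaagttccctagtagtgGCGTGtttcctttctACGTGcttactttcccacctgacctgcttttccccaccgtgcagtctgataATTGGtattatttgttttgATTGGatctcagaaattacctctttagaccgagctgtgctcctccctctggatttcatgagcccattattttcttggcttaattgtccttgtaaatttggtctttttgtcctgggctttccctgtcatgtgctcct
ACLY, chr17:41919023-41919272, minus strand: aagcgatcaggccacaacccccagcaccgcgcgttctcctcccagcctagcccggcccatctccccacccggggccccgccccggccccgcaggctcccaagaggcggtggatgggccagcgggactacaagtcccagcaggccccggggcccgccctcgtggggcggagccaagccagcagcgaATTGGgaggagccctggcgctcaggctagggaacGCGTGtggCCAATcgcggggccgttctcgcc
SCD, chr10:100346983-100347123, plus strand: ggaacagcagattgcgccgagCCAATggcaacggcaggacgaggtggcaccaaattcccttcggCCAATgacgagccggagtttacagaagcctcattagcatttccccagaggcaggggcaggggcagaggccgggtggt
None of the 14 windows held TCACNCCAC, a form of the sterol response element, on either strand, and 0.883% of 35116 windows of all genes did. None held the E-box CACGTG, present in 6.34% of all windows. ACGTG, which also lies within that E-box, was in 1 window each of ELOVL6, ACACA and ACACB, against 18.5% of all windows, and GCGTG was in 8 windows of 5 genes, against 32.2%. CCAAT was in 6 windows of 4 genes, against 32.0%, and the GC box GGGCGG was in 11 windows of 9 genes, against 42.6%. The windows of ACLY overlap each other, as do those of FADS2, so the same match can be counted in more than 1 window. The member windows were GC-rich, with a median of 67.6% against 58.0% over all windows, and the values of single windows ran from 43.6% to 81.6%. The lowest was the ACACA window printed above, which held no GGGCGG. The other windows of ACACA had 78.0% and 81.6% GC, with 6 and 5 matches of GGGCGG and none of ACGTG, so the printed one does not stand for them. These matches are descriptions of letters in short windows, and their absence says nothing of a factor's binding.

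The first comparison asked how the pathway differed between 1% O2 and 20% O2 in cells given vehicle. Of the 10 genes, 6 were lower in hypoxia, namely both factors, both carboxylases, the synthase and the elongase. Calls rested on 1 quasi-likelihood fit of edgeR over the 9 libraries and required a fold change above 1.5 and an FDR (Benjamini-Hochberg, over all genes tested) below 0.05. No member was called higher by edgeR or DESeq2, and none had a positive value at an unadjusted p under 0.05. Among all genes tested, 20.3% were called lower and 19.5% were called higher. The median log2 fold change was -1.18 over the 10 members and 0.001 over all genes tested. In the plot of values by library, the bars of the lowered genes in vehicle at 1% O2 stand below every point of the other groups.

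**Figure D1:**
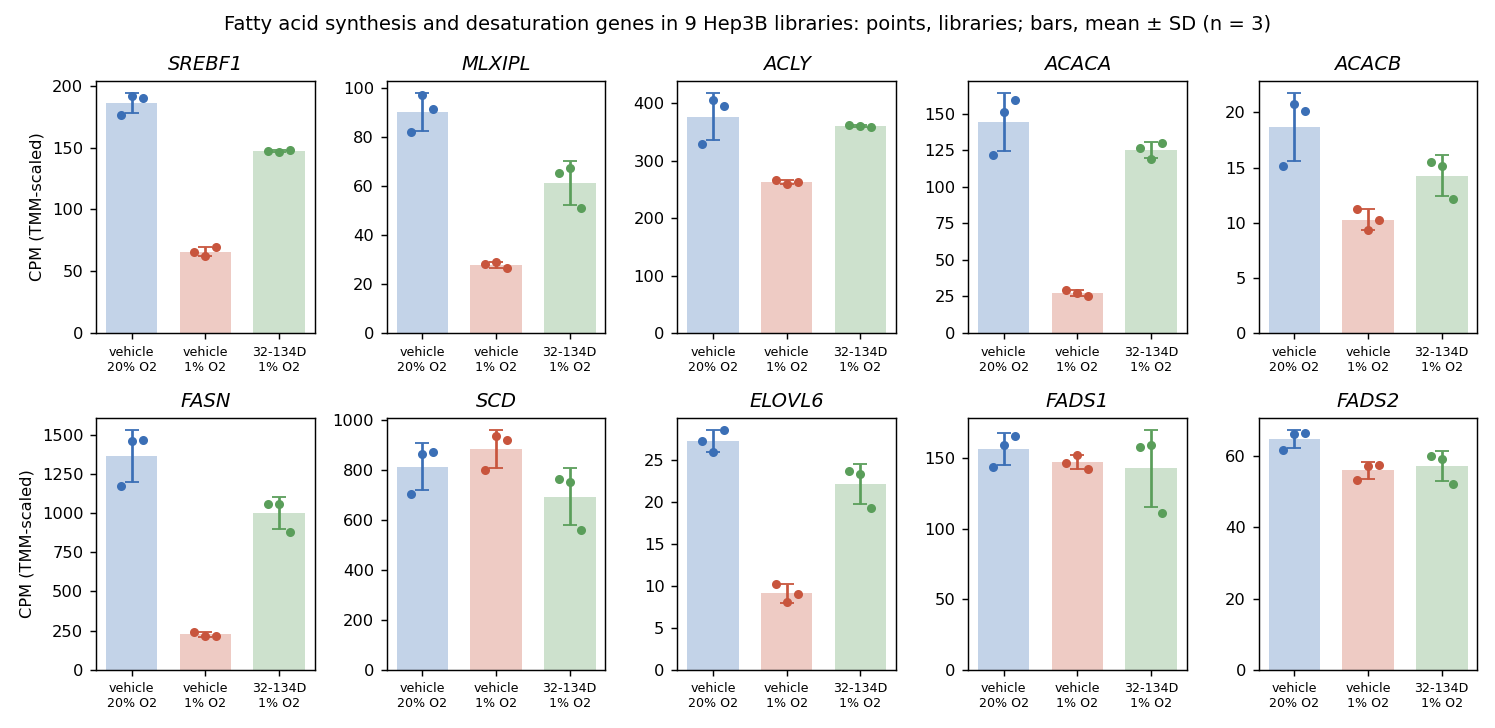
Level of each of the 10 genes in CPM after TMM scaling (vertical axes, each from 0) in vehicle at 20% O2 (blue), vehicle at 1% O2 (red) and 32-134D at 1% O2 (green). Points are the 3 libraries of each group, and bars and whiskers are the mean and SD. FASN sat between 1172 and 1463 CPM in vehicle at 20% O2 and between 216 and 242 CPM in vehicle at 1% O2, while the points of FADS1 overlapped in all 3 groups.

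Of the factors, SREBF1 (ENSG00000072310, GRCh38 chr17:17810399-17837002, minus strand) stood at 177, 192 and 189.8 CPM in replicates 1, 2 and 3 of vehicle at 20% O2. In vehicle at 1% O2 it stood at 65.2, 62.5 and 69.5 CPM, and with 32-134D at 147, 146 and 148 CPM. The 3 groups did not overlap, and the 32-134D libraries lay between the vehicle groups. Hypoxia lowered SREBF1 by 2.83-fold, a log2 fold change of -1.50 ± 0.07 (SE, edgeR FDR = 3.24e-10). MLXIPL (ENSG00000009950, chr7:73593194-73624543, minus strand) had 82.2, 97.4 and 91.6 CPM in vehicle at 20% O2, then 28.2, 28.9 and 26.6 CPM in vehicle at 1% O2. Its log2 fold change was -1.69 ± 0.11 (SE, edgeR FDR = 5.7e-09), and the groups were again apart. Up to 6.92% of the exon bases of SREBF1 lie opposite exons of RAI1, and the strand setting of the read counting is not given in the sources used here, so reads on those bases could belong to either gene.

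The carboxylases differed in the size of their fall. ACACA (ENSG00000278540, chr17:37084988-37406818, minus strand), the cytosolic carboxylase of fatty acid synthesis, had 122, 151 and 159.8 CPM in vehicle at 20% O2 and 29.2, 27.1 and 25.1 CPM in vehicle at 1% O2. ACACA was thus lowered by 5.32-fold, with a log2 fold change of -2.41 ± 0.10 (SE, edgeR FDR = 1.36e-10). ACACB (ENSG00000076555, chr12:109116595-109268226, plus strand), whose product at the mitochondrial surface restrains fatty acid oxidation, had 15.1, 20.7 and 20.2 CPM in vehicle at 20% O2. It had 11.3, 9.34 and 10.2 CPM in vehicle at 1% O2, and the ranges did not overlap. The log2 fold change of ACACB was -0.85 ± 0.14 (SE, edgeR FDR = 1.13e-04), and it moved to -0.30 (edgeR FDR = 0.0501) once trends over gene length and GC content were removed, which ended the call.

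FASN (ENSG00000169710, chr17:82078333-82098332, minus strand) had the lowest fold change of the 10 genes in hypoxia. It stood at 1172, 1458 and 1463 CPM in vehicle at 20% O2 and at 242, 216 and 217 CPM in vehicle at 1% O2, a fall of 6.06-fold. The log2 fold change was -2.60 ± 0.10 (SE, edgeR FDR = 7.93e-11), which placed FASN at percentile 4.57 of all genes tested and ACACA at percentile 5.34. ELOVL6 (ENSG00000170522, chr4:110045846-110199199, minus strand) was a gene of lower level, with 27.2, 25.9 and 28.6 CPM in vehicle at 20% O2 and 10.2, 8.02 and 9.06 CPM in vehicle at 1% O2. Its log2 fold change was -1.58 ± 0.12 (SE, edgeR FDR = 3.3e-08).

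ACLY and the 3 desaturases did not pass the thresholds in hypoxia. ACLY (ENSG00000131473, chr17:41866908-41930542, minus strand) had 329, 405 and 394.5 CPM in vehicle at 20% O2 and 266, 259 and 264 CPM in vehicle at 1% O2. The groups were apart and the FDR of edgeR was 4.56e-05, but the log2 fold change of -0.52 ± 0.08 (SE) was under the threshold of 1.5-fold. ACLY passed, for 7 members lower in hypoxia, with scaling by total library size (-0.73), with replicate 1 of vehicle at 20% O2 left out (-0.66) and with 10 counts required per library (-0.63). It also passed with trends over length and GC content removed (-0.62, edgeR FDR = 2.77e-06). SCD (ENSG00000099194, chr10:100347124-100364834, plus strand) had 704, 864 and 869 CPM in vehicle at 20% O2 and 797, 935 and 919 CPM in vehicle at 1% O2, with overlapping ranges. The log2 fold change of SCD was 0.12, with a 95% interval from -0.13 to 0.37 (edgeR FDR = 0.402), an interval that does not reach 1.5-fold in either direction.

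FADS1 (ENSG00000149485, chr11:61799625-61829318, minus strand) and FADS2 (ENSG00000134824, chr11:61792980-61867354, plus strand) lie on opposite strands of one locus. FADS1 had 143.5, 159.5 and 166 CPM in vehicle at 20% O2 and 147, 152 and 142 CPM in vehicle at 1% O2, and its log2 fold change had a 95% interval from -0.33 to 0.15 (edgeR FDR = 0.533). FADS2 had 61.9, 66.3 and 66.5 CPM, then 53.4, 57.3 and 57.6 CPM. The ranges of FADS2 were apart, with a log2 fold change of -0.21 and a 95% interval from -0.38 to -0.04 (edgeR FDR = 0.0351), under the fold threshold. With trends over length and GC content removed, the value for FADS2 turned to 0.22 (edgeR FDR = 0.0239). Exons of FADS1 and FADS2 overlap over 490 bases on opposite strands, 4.79% of the exon bases of FADS1 and 4.44% of those of FADS2, so part of their reads cannot be told apart without strand.

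Genes like SREBF1, ACACA, ACACB, FASN, FADS1 and FADS2 in length and GC content had medians below 0 in hypoxia and above 0 with 32-134D. Among 13860 genes with a mean of at least 1 CPM, FASN was at percentile 86.3 for exon length and 96.6 for GC content. The 182 genes within 10 percentile points of FASN on both measures had medians of -0.52 on the log2 scale in hypoxia and of 0.39 with 32-134D. For ACACA, the corresponding 419 genes had medians of -0.35 and 0.29, and for ACACB 279 genes had -0.59 and 0.49. For SREBF1, 301 genes had -0.43 and 0.24. After removal of these trends, an alternative chosen after seeing the data, FASN was at -2.18 in hypoxia and ACACA at -2.07. SREBF1 moved from -1.50 to -1.225. ELOVL6, with AT-rich transcripts (41.2% GC), moved from -1.58 to -1.77, and the 671 genes like it in length and GC content had a median of 0.20 in hypoxia. What underlies the trend was not tested.

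The second comparison asked what 32-134D did at 1% O2, against vehicle at 1% O2. The libraries of vehicle at 1% O2 serve in both comparisons, so an excursion in them would enter both with opposite sign, and the values are given side by side without a test between them. SREBF1, MLXIPL, ACACA, FASN and ELOVL6 were higher with 32-134D. No member was called lower by edgeR or DESeq2, and SCD was the one with a negative value at an unadjusted p under 0.05. Over all genes tested, 16.2% were called higher and 13.7% lower. The median log2 fold change was 0.80 over the members and -0.01 over all genes.

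FASN stood at 1058, 1060 and 879.6 CPM with 32-134D, all above the 216 to 242 CPM of vehicle at 1% O2. It rose by 4.43-fold, a log2 fold change of 2.15 ± 0.10 (SE, edgeR FDR = 1.54e-09). ACACA stood at 127, 119 and 129.8 CPM and rose by 4.61-fold, a log2 fold change of 2.20 ± 0.10 (SE, edgeR FDR = 9.48e-10). The synthase and its carboxylase had the largest rises among the 10 genes. ELOVL6 had 23.7, 23.3 and 19.3 CPM and rose by 1.28 ± 0.11 on the log2 scale (SE, edgeR FDR = 5.08e-07). SREBF1 rose by 1.16 ± 0.07 (SE, edgeR FDR = 1.04e-08). MLXIPL had 65.5, 67.2 and 50.9 CPM and rose by 1.14 ± 0.10 on the log2 scale (SE, edgeR FDR = 5.91e-07). Replicate 3 of 32-134D was the lowest of its group for MLXIPL, FASN, ELOVL6, ACACB and the 3 desaturases. Without it the same 5 genes were called, with FASN at 2.23 and ACACA at 2.18.

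ACLY had 362, 359 and 358.5 CPM with 32-134D, above all 3 libraries of vehicle at 1% O2, and its log2 fold change of 0.45 ± 0.08 (SE, edgeR FDR = 2.04e-04) was under 1.5-fold. ACACB had 15.5, 15.2 and 12.2 CPM, with a log2 fold change of 0.47 ± 0.14 (SE, edgeR FDR = 0.0103), also under the fold threshold. Neither was called, but with scaling by total library size both were, at 0.64 for ACLY and 0.66 for ACACB, for 7 members higher. SCD had 761, 752 and 559 CPM, all below the 797 to 935 CPM of vehicle at 1% O2. Its log2 fold change was -0.35, with a 95% interval from -0.60 to -0.11 (edgeR FDR = 0.0209), a value of opposite sign to that of FASN and not past 1.5-fold, and without replicate 3 it was -0.22 (edgeR FDR = 0.0256). FADS1 had 158, 159 and 111 CPM and a 95% interval of its log2 fold change from -0.28 to 0.20 (edgeR FDR = 0.799), around -0.04 with all libraries and at 0.11 without replicate 3. FADS2 had 60.0, 59.3 and 52.4 CPM and an interval from -0.13 to 0.20 (edgeR FDR = 0.779). For FADS1 and FADS2 these intervals exclude a change of 1.5-fold, and the ranges of the groups overlapped.

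**Figure D2:**
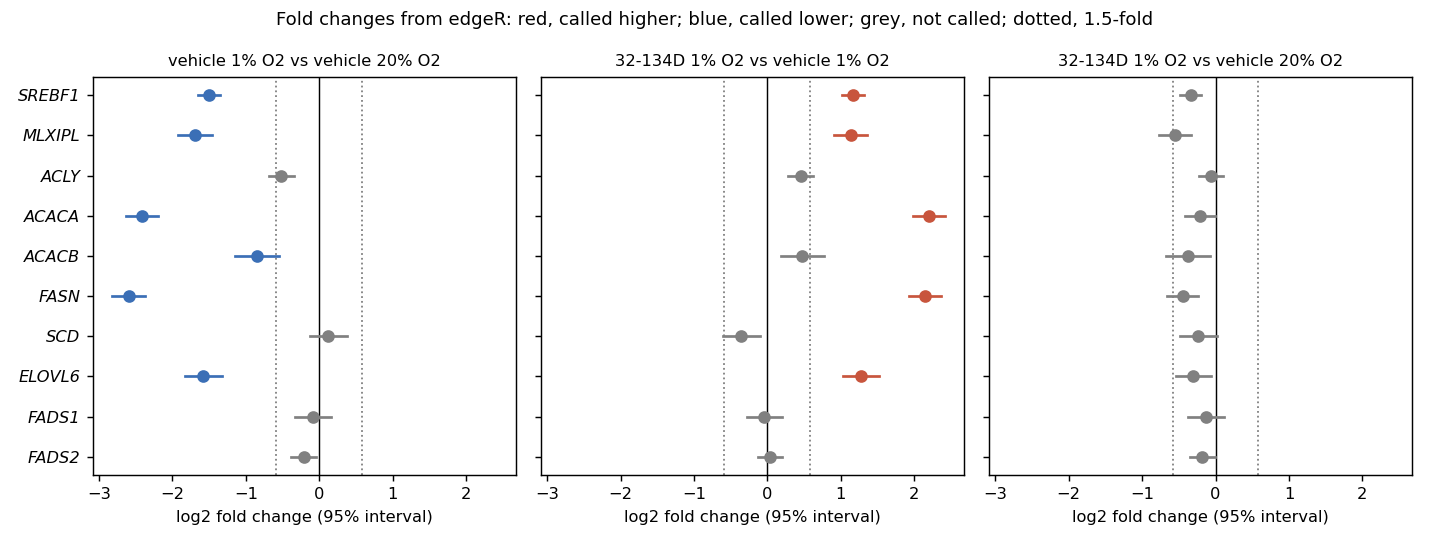
Log2 fold change of each of the 10 genes (horizontal axes) with its 95% interval from edgeR, in vehicle at 1% O2 against vehicle at 20% O2, 32-134D against vehicle at 1% O2, and 32-134D at 1% O2 against vehicle at 20% O2. Blue marks genes called lower, red genes called higher and grey genes not called, and dotted lines mark 1.5-fold. In the left panel 6 genes are blue, in the middle panel 5 are red, and in the right panel all 10 are grey.

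The third comparison set 32-134D at 1% O2 against vehicle at 20% O2, to show how far the treated hypoxic cells stood from normoxic ones. No member was called in either direction by edgeR, where 3% of all genes tested were called higher and 0.516% lower. DESeq2 called none either, and 7 members had a negative value at an unadjusted p under 0.05. All 10 log2 fold changes were below 0, with a median of -0.27 against -0.003 over all genes, but the hepatocyte markers had a median of -0.48 and the genes of cholesterol synthesis one of -0.26. Without replicate 3 of 32-134D, 9 of the 10 were below 0 with a median of -0.23, and the other medians were -0.18 and -0.08. The exception was FADS1, at 0.017. MLXIPL was at -0.56 (edgeR FDR = 0.00293), FASN at -0.45 (edgeR FDR = 0.00934) and SREBF1 at -0.34 (edgeR FDR = 0.0055). These 3 genes passed the FDR but not the fold threshold. MLXIPL lay near that threshold, and it was called lower when replicate 1 of vehicle at 20% O2, or replicate 1 or replicate 2 of 32-134D, was left out, and also when the libraries were thinned to the depth of the smallest. Without replicate 3 of 32-134D it was at -0.44 and not called. The ranges of MLXIPL were 82.2 to 97.4 CPM and 50.9 to 67.2 CPM. The remaining members had an FDR from 0.105 to 0.681, among them ACACA at -0.21 (edgeR FDR = 0.199) and ACLY at -0.06 (edgeR FDR = 0.681).

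To compare the genes with each other, levels were divided by exon length, as CPM per kilobase of merged exons. In vehicle at 20% O2, SCD at 152 and FASN at 146 CPM per kilobase led the order with overlapping ranges. They were followed by ACLY at 72.2, SREBF1 at 23.2, MLXIPL at 18.8, FADS1 at 15.3, ACACA at 11.1, FADS2 at 5.89, ELOVL6 at 3.73 and ACACB at 1.29. In vehicle at 1% O2, SCD stood alone at 165 CPM per kilobase, and ACLY at 50.4 was above FASN at 24.1. FADS1 at 14.4 was then above SREBF1 at 8.18 and MLXIPL at 5.80, and FADS2 at 5.09 was above ACACA at 2.09. All neighbours in that order were apart in their ranges. With 32-134D, SCD at 129 and FASN at 107 again led with overlapping ranges, ahead of ACLY at 69.0 and SREBF1 at 18.3. FADS1 at 14.0 and MLXIPL at 12.7 overlapped too.

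**Figure D3:**
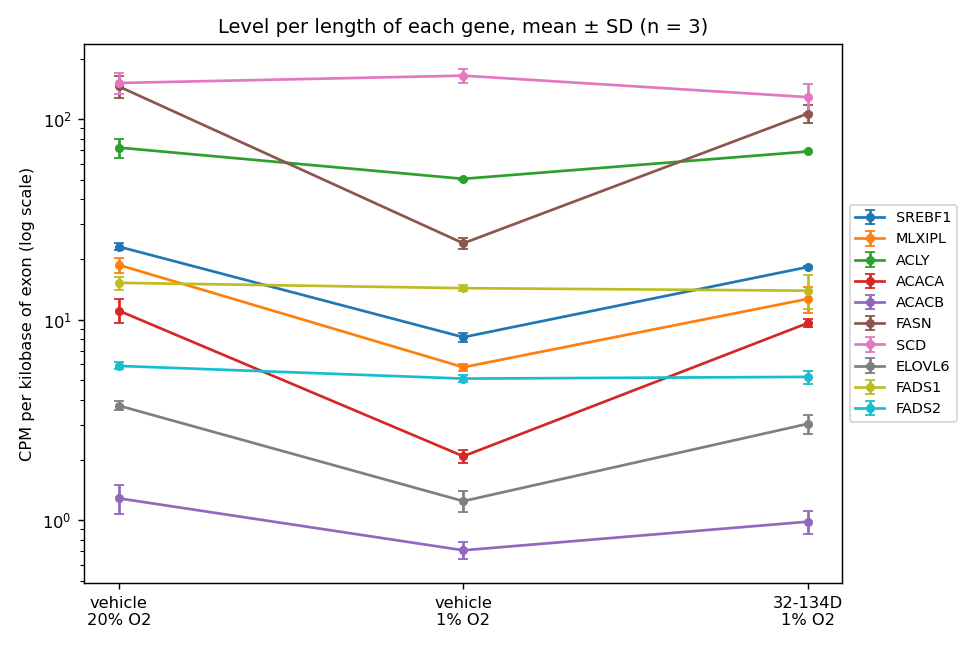
Level of each gene in CPM per kilobase of merged exons (vertical axis, log scale) in the 3 groups, with points at the mean and whiskers at the SD of 3 libraries. FASN dips from 146 to 24.1 and returns to 107, crossing below ACLY in vehicle at 1% O2, while SCD stays between 129 and 165.

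Ratios within a library do not depend on its scaling. On the scale of CPM per kilobase, ACACB made up 10.0%, 10.9% and 10.2% of both carboxylases in the libraries of vehicle at 20% O2. In vehicle at 1% O2 its share was 25.7%, 23.6% and 26.8%, and with 32-134D it was 9.87%, 10.3% and 7.75%. The share was higher in every library of vehicle at 1% O2 than in any other, and the exact two-sided permutation test gave p = 0.1 against either group, the smallest that 3 against 3 can give. Between 32-134D and vehicle at 20% O2 the exact permutation p was 0.3. The share of FADS1 in FADS1 plus FADS2 was 72.2% ± 0.739 (SD, n = 3), 73.9% ± 1.07 and 72.6% ± 2.62 in the same order of groups, with exact permutation p = 0.2 for hypoxia and p = 0.6 for the compound.

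The ratios that follow were chosen after their values were seen. FASN had 1.67, 1.69 and 1.69 counts per count of SCD in vehicle at 20% O2, 0.304, 0.231 and 0.237 in vehicle at 1% O2, and 1.39, 1.41 and 1.57 with 32-134D. The synthase thus went from more counts than the desaturase to fewer in vehicle at 1% O2, and back to more with the compound. Every library with 32-134D was still below those of vehicle at 20% O2. ACACA had 0.178 ± 0.00566 (SD, n = 3), 0.0310 ± 0.0050 and 0.186 ± 0.0405 counts per count of SCD in the same order of groups. The ratio of SREBF1 to SREBF2, which encodes the factor of cholesterol synthesis, averaged 0.981 ± 0.0680 (SD, n = 3) in vehicle at 20% O2. It averaged 0.375 ± 0.0349 in vehicle at 1% O2 and 0.833 ± 0.0752 with 32-134D. SREBF2 itself was not called, with log2 fold changes of -0.12 in hypoxia (edgeR FDR = 0.301) and 0.02 with 32-134D (edgeR FDR = 0.907).

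**Figure D4:**
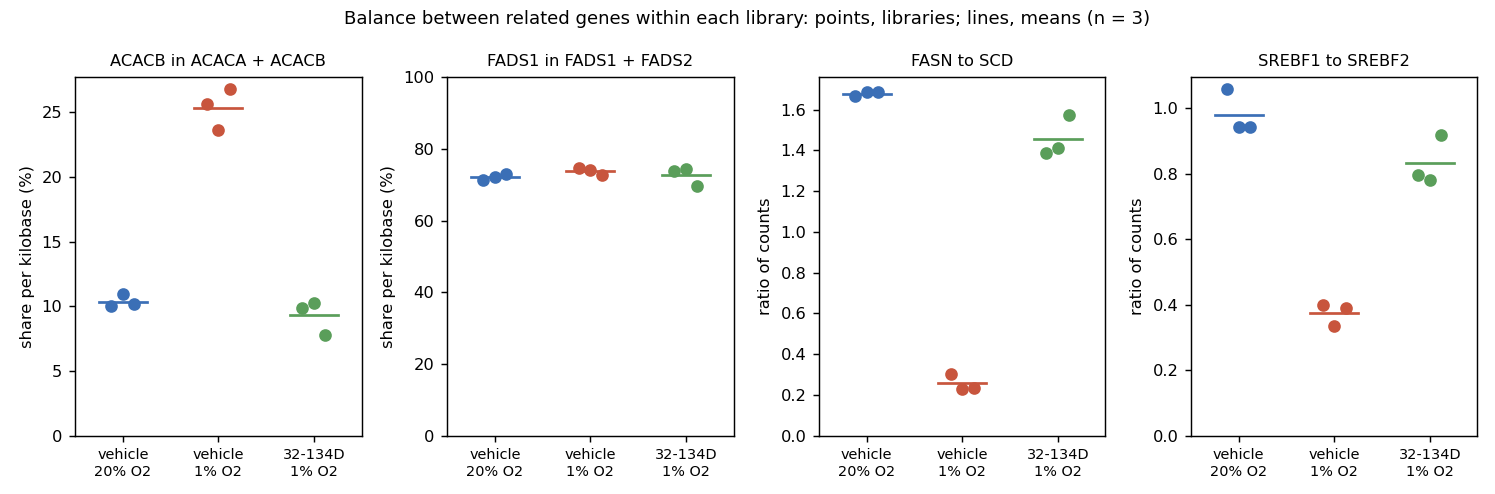
Balance between related genes within each library, with points for the 3 libraries of a group and lines for their means. The panels show the share of ACACB in both carboxylases and of FADS1 in FADS1 plus FADS2 (percent, per kilobase), and the ratio of counts of FASN to SCD and of SREBF1 to SREBF2. The carboxylase share is highest in vehicle at 1% O2 (23.6% to 26.8%), where the FASN to SCD ratio is lowest (0.231 to 0.304).

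Genes around the pathway were called in both directions. Their counts are to be read against the shares of all genes tested, 19.5% higher and 20.3% lower in hypoxia and 16.2% higher and 13.7% lower with 32-134D. Among 14 genes that control SREBP and ChREBP, 3 rose and 3 fell in hypoxia, and 3 rose and 3 fell with 32-134D, which is near those shares. INSIG2, which holds the SREBP complex in the endoplasmic reticulum, rose in hypoxia by 1.61 ± 0.11 on the log2 scale (SE, edgeR FDR = 1.37e-08) and had -1.49 with 32-134D (edgeR FDR = 6.32e-08). INSIG1, of the same function, was at 1.10 and -0.82, and NR1H2, the liver X receptor beta, at 0.79 and -0.65. RXRA, the partner of the liver X receptors, was at -1.18 and 0.71, and MLXIP, a relative of MLXIPL, at -0.93 and 0.82. PPARGC1B, a coactivator of SREBP-1, was at -2.94 and 2.92, with no more than 37 counts in any library. In vehicle at 1% O2, on which both values rest, it had no more than 5 counts, so their size is uncertain. SCAP, which escorts SREBP, was not called, at -0.03 in hypoxia (edgeR FDR = 0.731).

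Most suppliers of carbon and reducing power were not called. Of 8 such genes tested, 1 rose and 1 fell in hypoxia, and 1 rose with 32-134D, where edgeR and DESeq2 called 0 lower and edgeR gave 3 negative values an unadjusted p under 0.05. ME1, the NADPH-producing malic enzyme, rose in hypoxia by 0.89 (edgeR FDR = 6.92e-05), was not called with 32-134D at -0.11 (edgeR FDR = 0.526), and was higher with 32-134D than in vehicle at 20% O2 by 0.78 (edgeR FDR = 0.0025). MTHFD1, a folate enzyme, was at -0.78 in hypoxia and 0.68 with 32-134D. The mitochondrial citrate carrier SLC25A1 was at 0.09 (edgeR FDR = 0.534) in hypoxia and -0.39 with 32-134D (edgeR FDR = 0.0116). A further list, of genes around the carboxylases and synthase, had 4 genes tested. AACS, which makes acetoacetyl-CoA in the cytosol, was at 1.00 in hypoxia and -0.64 with 32-134D. HLCS, which attaches biotin to the carboxylases, was at -0.86 and 1.04, and all 4 of these values were called.

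Among 11 other genes of chain elongation tested, 2 rose and 2 fell in hypoxia, and 1 rose and 2 fell with 32-134D. DESeq2 called 3 lower in hypoxia and 1 lower with 32-134D. ELOVL2, which lengthens polyunsaturated chains, was at -0.91 in hypoxia and 0.66 with 32-134D. ELOVL3 and ELOVL4, for very long chains, were at 2.43 and 2.51 in hypoxia and at -1.33 and -1.12 with 32-134D. They had at most 48 counts in any library, and in vehicle at 20% O2 at most 8 (ELOVL3) and 7 (ELOVL4). The ranges of ELOVL3 overlapped between 32-134D and vehicle at 1% O2. HACD1, a dehydratase of the cycle, was at -0.62 in hypoxia, and without replicate 3 of 32-134D it was also called higher with the compound, at 0.62. Of 7 other desaturases and electron donors, DEGS1, a ceramide desaturase, rose in hypoxia by 0.85 (edgeR FDR = 5.45e-07) and CYB5A, a cytochrome b5, was at -0.68 (edgeR FDR = 1.4e-05). None of those 7 was called with 32-134D by edgeR, nor by DESeq2, and edgeR gave 2 positive and 2 negative values among them an unadjusted p under 0.05.

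Fatty acid activation and binding held 9 genes, of which 2 rose and 3 fell in hypoxia, and 3 rose and 2 fell with 32-134D. DESeq2 called 4 lower in hypoxia and 1 lower with 32-134D. ACSL4, an acyl-CoA synthetase that prefers arachidonate, was at -1.99 ± 0.21 in hypoxia (SE, edgeR FDR = 1.22e-06) and 1.56 ± 0.21 with 32-134D (SE, edgeR FDR = 1.9e-05). ACSL1, another synthetase, went the other way at 0.85 and -0.64, as did ACBD3, a Golgi protein with an acyl-CoA binding domain, at 1.50 and -0.96. ACSL6 was at -1.91 and 2.12 on at most 52 counts a library, and at most 14 in vehicle at 1% O2. FABP1, the liver fatty acid binding protein, was at -0.59 in hypoxia. FABP5 was at 0.73 with 32-134D, which became 0.57 and lost its call without replicate 3. The separate mitochondrial pathway of fatty acid synthesis had 9 genes, with 2 higher and 2 lower in hypoxia and 2 higher and 1 lower with 32-134D, and 3 lower in hypoxia by DESeq2. CBR4, a subunit of its ketoacyl reductase, was at -1.30 and 1.22, and HSD17B8, its partner, at -0.79 in hypoxia. OXSM, its condensing enzyme, was at 0.94 and -0.68, and LIAS, which makes lipoate, at 0.68 in hypoxia. MECR, its enoyl reductase, was at 0.66 with 32-134D, which became 0.58 and lost its call without replicate 3.

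Other targets of SREBP-1, the liver X receptors or ChREBP did not share one direction. Of 12, 6 rose and 4 fell in hypoxia, and 4 rose and 5 fell with 32-134D. DESeq2 called 5 higher in hypoxia and 3 higher with 32-134D. GPAM, which starts glycerolipid synthesis, was at -5.74 ± 0.44 in hypoxia (SE, edgeR FDR = 4.96e-08) and 5.12 ± 0.44 with 32-134D (SE, edgeR FDR = 3.37e-07). Its mean level went from 41.9 CPM in vehicle at 20% O2 to 0.753 CPM in vehicle at 1% O2 and 26.98 CPM with 32-134D. The 32-134D libraries were at 35.3, 36.0 and 9.695 CPM, and without replicate 3 the log2 fold change with 32-134D was 5.50. PNPLA3, a lipid droplet protein, was at -2.01 and 1.45. The cholesterol exporter ABCA1 was at -2.02 and 1.88. PKLR, a ChREBP target, was at -1.87 in hypoxia (edgeR FDR = 2.02e-04) and 1.04 with 32-134D (edgeR FDR = 0.0159). Its ranges overlapped in the second comparison, and without replicate 3 of 32-134D the value was 1.42. In the opposite direction, the ChREBP targets TXNIP and ARRDC4, which are arrestin-like proteins, rose by 4.34 and 4.89 in hypoxia and were at -2.48 and -2.37 with 32-134D. Both were still higher with 32-134D than in vehicle at 20% O2, by 1.86 (edgeR FDR = 3.32e-07) and 2.51 (edgeR FDR = 9.26e-07). G6PC was called too, but it had no more than 2 counts in any library of vehicle at 20% O2 and no more than 3 with 32-134D, against up to 20 in vehicle at 1% O2, so no fold is given.

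Of 18 genes of cholesterol synthesis, 3 rose and 4 fell in hypoxia, and 3 rose and 3 fell with 32-134D. LSS, the lanosterol synthase, was at -2.28 ± 0.19 in hypoxia (SE, edgeR FDR = 1.36e-07) and 1.59 ± 0.19 with 32-134D (SE, edgeR FDR = 7.35e-06). Against vehicle at 20% O2 it was called lower at -0.69 (edgeR FDR = 0.0278), on 115, 110.2 and 55.8 CPM with 32-134D against 141, 157 and 155 CPM. Replicate 3 of 32-134D decided that call, since without it the value was -0.43, under 1.5-fold. HMGCS1, an early enzyme, was at -1.08 and 0.74. It had 170.5, 173.3 and 82.4 CPM with 32-134D, overlapping the 80.5 to 88.3 CPM of vehicle at 1% O2. Without replicate 3 its value with 32-134D was 1.01. MSMO1, CYP51A1 and SC5D, enzymes of the later sterol steps, were at 1.36, 1.02 and 0.82 in hypoxia and at -0.98, -0.76 and -0.66 with 32-134D. SQLE, the squalene epoxidase, was not called, at -0.01 in hypoxia (edgeR FDR = 0.961). The list median was -0.11 in hypoxia and -0.08 with 32-134D (0.10 without replicate 3), against 0.001 and -0.01 over all genes tested.

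**Figure D5:**
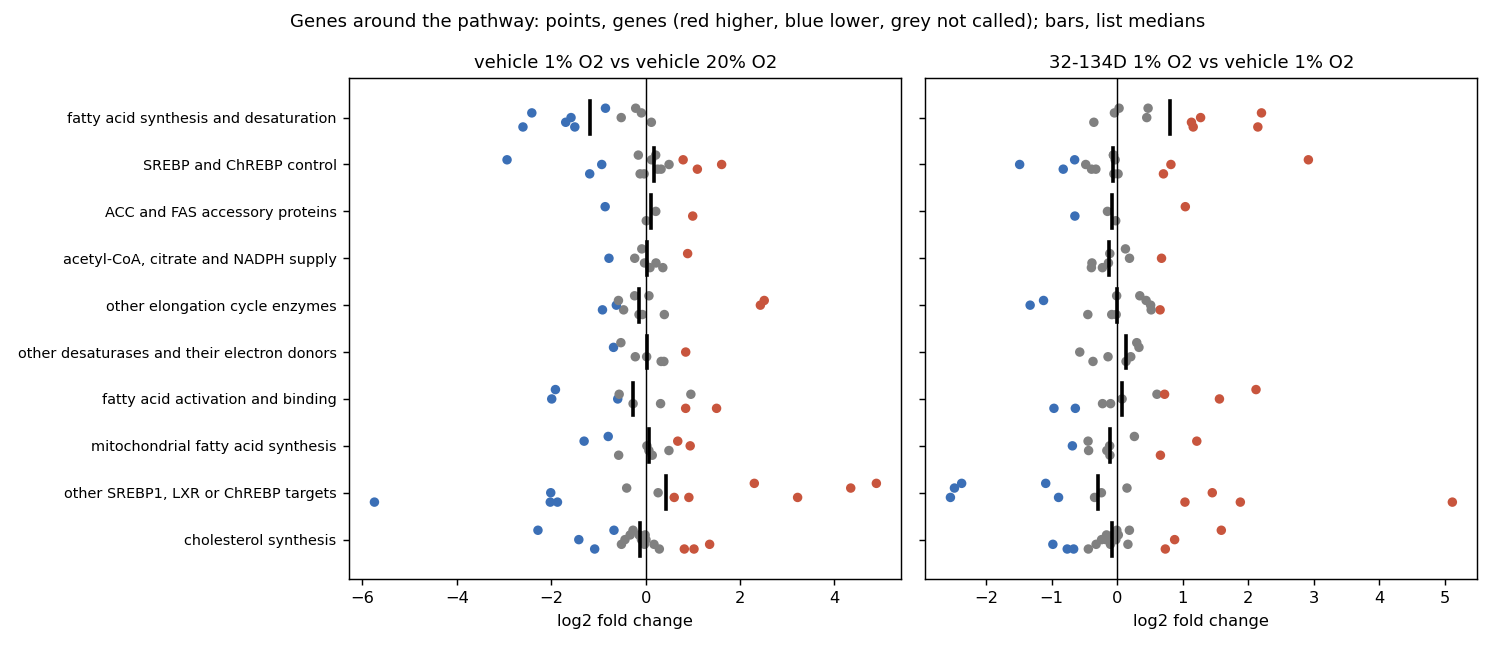
Log2 fold change of each gene tested (points) in 10 gene lists, in vehicle at 1% O2 against vehicle at 20% O2 (left) and 32-134D against vehicle at 1% O2 (right), with red for called higher, blue for called lower, grey for not called and a black bar at the list median. The 10 genes of fatty acid synthesis and desaturation have medians of -1.18 and 0.80, and the medians of the other lists lie between -0.27 and 0.44 on the left and between -0.29 and 0.14 on the right.

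The genes whose profile over the 9 libraries lay closest to that of 3 members were sought by the root mean square difference of centred log2 CPM among 11140 genes with a mean of at least 5 CPM. TECPR1 (0.030), SALL4 (0.036) and PLXNB1 (0.057) were closest to SREBF1, and ABAT (0.083), NBEAL2 (0.096) and SFXN2 (0.099) to FASN. MVP (0.051), DHCR7 (0.072) and GRN (0.072) were closest to SCD. The nearest member to FASN was ACACA, at rank 17 with 0.148, and the nearest to SREBF1 was ELOVL6, at rank 99 with 0.128. FADS1 was the nearest member to SCD, at rank 243 with 0.147.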

How the data were processed

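RNA-seq was performed on 9 Hep3B cultures, 3 per group. The authors deposited raw counts for Ensembl genes. They had used FastQC and Bbduk on the reads, STAR with Ensembl release 100 on GRCh38, and featureCounts, and the strand setting and tool versions are not given in the sources used here. The labels name DMEM/F12 medium and the methods high-glucose DMEM. From the counts, log2 fold changes were computed with edgeR 4.0.16 in R 4.3.3 (TMM scaling, quasi-likelihood test, 1 fit of the 9 libraries) for genes with counts summing to at least 10. Standard errors were derived from the F statistic. Calls needed an FDR below 0.05 over all genes tested and a fold change above 1.5. Shares and ratios were compared with exact two-sided permutation tests. Positions and exon lengths came from GENCODE version 29 on GRCh38, and upstream sequences from RefSeq on GRCh38.p14.

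The members and gene lists were chosen with earlier results of these data known. Named are the 10 members, from each other list up to 3 called genes with the largest fold change and up to 2 called in the opposite direction in each comparison with vehicle at 1% O2, and the 3 genes with the profile nearest to SREBF1, FASN and SCD, and other genes named were picked after their values were seen. Marker genes are given as summed ranges, and APOB, ALB and PDGFRB also by their means. The values of 1 gene that the rule names are not reported here. The alternatives were DESeq2 1.42.0, other scalings, filters and fold thresholds, fits of 2 groups, a replicate block, thinning to the smallest library, shares without division by length, leaving out each library, and removal of lowess trends over exon length and GC content, the last added after seeing the data. No library repeated another, since replicate pairs had chi-square values of 1.62 to 36.4 per degree of freedom, and both values over 30 were those of replicate 3 of 32-134D. Total counts of 6013980 to 40549699 and 3 replicates limit the precision.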

Additional observations from a re-analysis of the deposited data

How the results depend on the processing

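The falls of SREBF1, MLXIPL, ACACA, FASN and ELOVL6 in hypoxia and their rises with 32-134D kept their direction and their call under each alternative tried, for example FASN from -2.81 to -2.18 and from 1.88 to 2.33, and ACACA from -2.62 to -2.07 and from 1.88 to 2.39. ACLY was added to the calls in hypoxia under 4 of the alternatives that keep the fold threshold, and ACLY and ACACB to those with 32-134D under scaling by total library size. ACACB lost its call in hypoxia with a threshold of 2-fold and with the length and GC trends removed. Values that were not called and turned in sign were small. With the length and GC trends removed, the log2 fold changes in hypoxia were -0.045 for SCD, 0.10 for FADS1 and 0.22 for FADS2, and FADS2 was at -0.29 with 32-134D. With scaling by total library size, which moved the median of all genes to -0.21 in hypoxia and 0.17 with 32-134D, SCD was at -0.094 in hypoxia and FADS1 at 0.15 with 32-134D, and calls in the higher direction went from 49% to 34.5% in hypoxia and from 54.2% to 72% with 32-134D. FADS1 with 32-134D was at 0.02 with RLE factors (0.0168), DESeq2 (0.0163) and a fit of the 2 groups (0.024), and at 0.055 with 10 counts in every library. Leaving out 1 library gave SCD -0.028 to 0.19 in hypoxia, FADS1 -0.12 to 0.11 and FADS2 -0.0049 to 0.12 with 32-134D, and FADS1 -0.22 to 0.017 against vehicle at 20% O2. It gave 35 to 198 genes lower with 32-134D than in vehicle at 20% O2, against 117, and 0 to 1 members. Requiring 10 counts in every library gave 2824 genes higher in hypoxia and 1771 lower with 32-134D, and total library size 1847 lower with 32-134D. A threshold of 2-fold gave 2449 higher in hypoxia, 1188 lower with 32-134D, and 283 higher and 21 lower against vehicle at 20% O2. Without a fold threshold there were 5788 lower with 32-134D, 1 member among them (SCD), and 1771 higher and 553 lower against vehicle at 20% O2, with 3 members lower (SREBF1, MLXIPL and FASN). Against vehicle at 20% O2, 291 genes were lower with no count filter, 39 in a fit of the 2 groups and 74 with the trends removed, and thinning left 1 member lower (MLXIPL). Replicate numbers did not pair the libraries, with correlations of deviations from -0.221 to 0.087, and a replicate block gave 4296 genes higher and 4375 lower in hypoxia, with 6 members lower. Depth is limited by the smallest library, of 6013980 counts, in vehicle at 20% O2.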
